A study of Homo sapiens with 48 samples.

Results

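A set of 10 genes of the WNT pathway was followed by name in bulk RNA-seq of cultured human fibroblasts: the ligands WNT2, WNT5A and WNT5B, the agonist RSPO3, the receptors FZD7 and ROR2, the antagonists DKK1, DKK3 and SFRP1, and the target gene AXIN2. All 10 were found by symbol among the 29744 genes of the count table. The table holds 48 libraries from 16 conditions, with 3 libraries each. The cells were the immortalized fibroblast line CRL-4001, labelled as skin, which carried a fluorescent IL-11 reporter (IL-11mNG). TGFβ and IL-1β, each at 10 ng/ml, were given for 0, 6, 12 or 24 h. In the CRISPRko arm, H47_Ctrl cells were the Cas9 control and H47_KO cells had been targeted at GLIS3, a zinc finger transcription factor. In the CRISPRa arm, the cells carried dCas9–VP64, which activates the gene that a guide points to, and were described as VP64_Ctrl or VP64_A. The study used a GLIS3 guide for its activated cells and a non-targeting guide for their control. Which group was which is taken up below with the labels. Every sample's labels describe the line as Cas9 positive and as a GLIS3 knockout, controls and CRISPRa cells included, so this line of the labels does not tell the groups apart. The guides came by lentivirus and the cells were used as selected pools, not single clones. Total estimated counts ran from 2321990 to 10661004 per library, with a median of 5139646. The labels do not say whether the 3 libraries of a condition came from separate cultures. The study describes its cell culture experiments in general as made of independent biological replicates, without saying how these libraries were made, and the p-values measure the spread between the libraries.

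WNT proteins are secreted signals that bind Frizzled receptors such as FZD7. With the co-receptors LRP5 and LRP6 they stabilise β-catenin, which then switches on targets such as AXIN2 together with TCF/LEF factors. WNT5A and WNT5B act mostly through routes without β-catenin, in which ROR2 is a co-receptor, and R-spondins such as RSPO3 raise the number of receptors at the surface. DKK1 blocks the LRP co-receptors, SFRP1 binds WNT proteins outside the cell, and DKK3 is a divergent relative of DKK1 whose action is less clear. In fibroblasts this pathway is known for its links with TGFβ signalling and fibrosis.

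The labels were checked first. GLIS3 reached 0.144 to 1.64 normalised CPM in the H47_KO libraries and 1.45 to 6.47 in the H47_Ctrl libraries, where normalised CPM is CPM after TMM scaling within an arm. The groups did not overlap at any of the 4 times, and GLIS3 was lower in H47_KO by 1.69 ± 0.25 (SE) on the log2 scale over the mean of the 4 times (edgeR, adjusted p = 5.71e-05). In the CRISPRa arm the titles and the descriptions name opposite groups as the control. GLIS3 reached 16.6 to 36.7 normalised CPM where the description was VP64_A and 1.91 to 6.31 where it was VP64_Ctrl, a difference of 3.05 ± 0.12 on the log2 scale (adjusted p = 5.22e-19). The descriptions are used throughout. Under the titles the differences between VP64_A and VP64_Ctrl would turn around, while the changes with time would keep their direction and the 2 groups would exchange names. IL11, a cytokine made by activated fibroblasts, rose at 6 h in all 4 groups of cells, by 2.59 ± 0.40 on the log2 scale in H47_Ctrl (adjusted p = 9.32e-06).

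Of the 9 fibroblast markers examined, all had a mean above 1 TPM (a share of all transcripts, corrected for their length), with VIM highest, but several moved with the groups. The median of DCN was 29.1 TPM in H47_Ctrl and 10.1 TPM in H47_KO, that of COL1A1 1191 and 763 TPM and that of COL3A1 228 and 142 TPM. In VP64_A the medians of COL1A1 and COL1A2 were 922 and 2791 TPM, against 435 and 1559 TPM in VP64_Ctrl. LUM, THY1 and DCN were lower in VP64_A, with medians of 187, 560 and 14.4 TPM against 368, 901 and 24.0 TPM. The other fibroblast markers differed less between the groups of an arm. Endothelial, melanocyte and smooth muscle markers summed to at most 0.615, 0.879 and 1.91 TPM in any library. Of the 5 epithelial markers, EPCAM was at 0 in all 48 libraries and CDH1, KRT5 and KRT19 had means under 1 TPM, while KRT14 moved with the groups: its median was 54.0 TPM in VP64_A, 6.96 TPM in VP64_Ctrl and 0 TPM in both H47 groups. Among immune markers, CD68 ranged from 13.6 to 69.6 TPM, with medians of 18.7 in H47_Ctrl, 30.6 in H47_KO, 39.9 in VP64_Ctrl and 19.5 in VP64_A, PTPRC reached at most 0.505 TPM, and CD3E and LYZ were at 0 in every library. Whether these markers have a part in the differences between the groups was not tested. In bulk RNA, fewer cells of a type and less RNA per cell cannot be told apart. In 3 libraries the TMM factor was above 1.5: replicate 3 of H47_KO at 0 h, replicate 3 of H47_KO at 24 h and replicate 3 of VP64_Ctrl at 0 h. In the last of these the 50 most abundant genes held 23.1% of the counts, the lowest share of the 48. Where leaving these libraries out changed the call of a followed value of the 10 genes, both values are given. No such values are given for single genes outside the 10.

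DKK1 reached the highest level of the genes and had the widest range over the conditions, and WNT5A was the ligand called between VP64_A and VP64_Ctrl, so the bases before their transcription starts are shown to be read beside the values. The windows come from RefSeq (GRCh38.p14), 250 bases each, written 5′ to 3′ on the strand of the gene, with capitals at the matches to 6 motifs on either strand. The core of TCF/LEF sites was written as CTTTGA. The AP-1 motif was written as TGANTCA. The SMAD element was written as CAGAC. The TEAD motif was written as GGAATG, the GLIS motif was taken as TGGGGGG and the TATA box as TATAAA.
DKK1, chr10:52314031-52314280, plus strand: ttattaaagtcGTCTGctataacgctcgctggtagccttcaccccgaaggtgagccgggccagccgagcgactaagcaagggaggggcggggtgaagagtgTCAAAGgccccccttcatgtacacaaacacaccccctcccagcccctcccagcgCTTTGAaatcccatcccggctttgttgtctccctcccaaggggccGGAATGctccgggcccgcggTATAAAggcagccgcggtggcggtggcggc
WNT5A, first start, chr3:55487307-55487556, minus strand: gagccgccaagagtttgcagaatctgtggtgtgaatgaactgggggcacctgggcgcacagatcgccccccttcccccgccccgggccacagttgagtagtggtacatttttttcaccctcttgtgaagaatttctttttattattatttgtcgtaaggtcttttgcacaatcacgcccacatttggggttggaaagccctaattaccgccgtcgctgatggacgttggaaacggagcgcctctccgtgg
WNT5A, second start, chr3:55481399-55481648, minus strand: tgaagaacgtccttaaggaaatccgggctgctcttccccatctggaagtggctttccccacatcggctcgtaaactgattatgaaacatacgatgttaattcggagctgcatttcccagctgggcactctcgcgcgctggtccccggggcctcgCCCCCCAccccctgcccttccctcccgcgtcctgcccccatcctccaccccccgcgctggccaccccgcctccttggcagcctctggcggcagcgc
The DKK1 window held 5 matches: 2 to the TCF/LEF core, which begin 149 and 95 bases before the start, 1 to the SMAD letters, 1 to the TEAD letters and 1 to the TATA box, 30 bases before the start. No match overlapped another. Among 35116 promoter windows of the same length, 11.2% held the TCF/LEF core, 38% the SMAD letters, 11.9% the TEAD letters and 10.7% the TATA letters. The first WNT5A window held none of the 6 motifs and the second held 1 match, to the GLIS letters, 96 bases before the start, a motif found in 7.1% of the windows. The GLIS letters were not particular to WNT5A among the members. They were also in the second WNT5B window, 197 bases before the start, and in the RSPO3 window, 112 bases before the start. WNT5B was not called between VP64_A and VP64_Ctrl, and RSPO3 was not tested. The AP-1 letters, found in 6.6% of the windows, were in none of the 3 windows printed here. The motifs were chosen after the windows had been read, so the shares are no test of these matches. A share counts windows with at least 1 match, and no share is given for 2 matches. These matches describe letters and are not evidence of binding.

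The levels of the 10 genes differed widely. DKK1 and DKK3 were by far the most abundant, with ranges of 62.1 to 2450 TPM and 208 to 603 TPM over the 48 libraries. WNT5A (9.13 to 82.1 TPM) and WNT5B (6.38 to 39.1 TPM) followed, and FZD7 (0.320 to 7.62 TPM) and SFRP1 (0.111 to 11.4 TPM) were low. These 6 genes passed the filter on low counts in both arms and were tested. At 0 h DKK1 ranked 156th among all genes by mean TPM in H47_Ctrl, 125th in H47_KO, 84th in VP64_Ctrl and 190th in VP64_A. The loci of the tested genes are, in GENCODE v44 on GRCh38, chr3:55465715-55490539 for WNT5A, chr12:1529891-1647212 for WNT5B, chr2:202033855-202038441 for FZD7, chr10:52314281-52318042 for DKK1, chr11:11956207-12009769 for DKK3 and chr8:41261962-41309473 for SFRP1.

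The other 4 genes gave little or no signal. WNT2 and ROR2 had 0 counts in all 48 libraries, and at these depths a count of 0 allows up to 3 counts, or 0.281 to 1.29 CPM of the library total. AXIN2, the usual readout of β-catenin signalling, had a count in 22 of the 48 libraries and never more than 4. RSPO3 had a count in 24 libraries and never more than 18. Its counts gathered at 6 h: summed over 3 libraries they were 0 at 0 h and 10 at 6 h in H47_Ctrl, 0 and 19 in H47_KO, 3 and 27 in VP64_Ctrl, and 0 and 8 in VP64_A. At 24 h the sums were 3, 0, 10 and 0 in the same order of groups. RSPO3 was below the filter on low counts and had no value in the fits reported here. With the filter dropped, its counts were set against 0 in H47_Ctrl, H47_KO and VP64_A at 0 h, so no test is given for it. These floors cover counting error only.

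**Figure D1:**
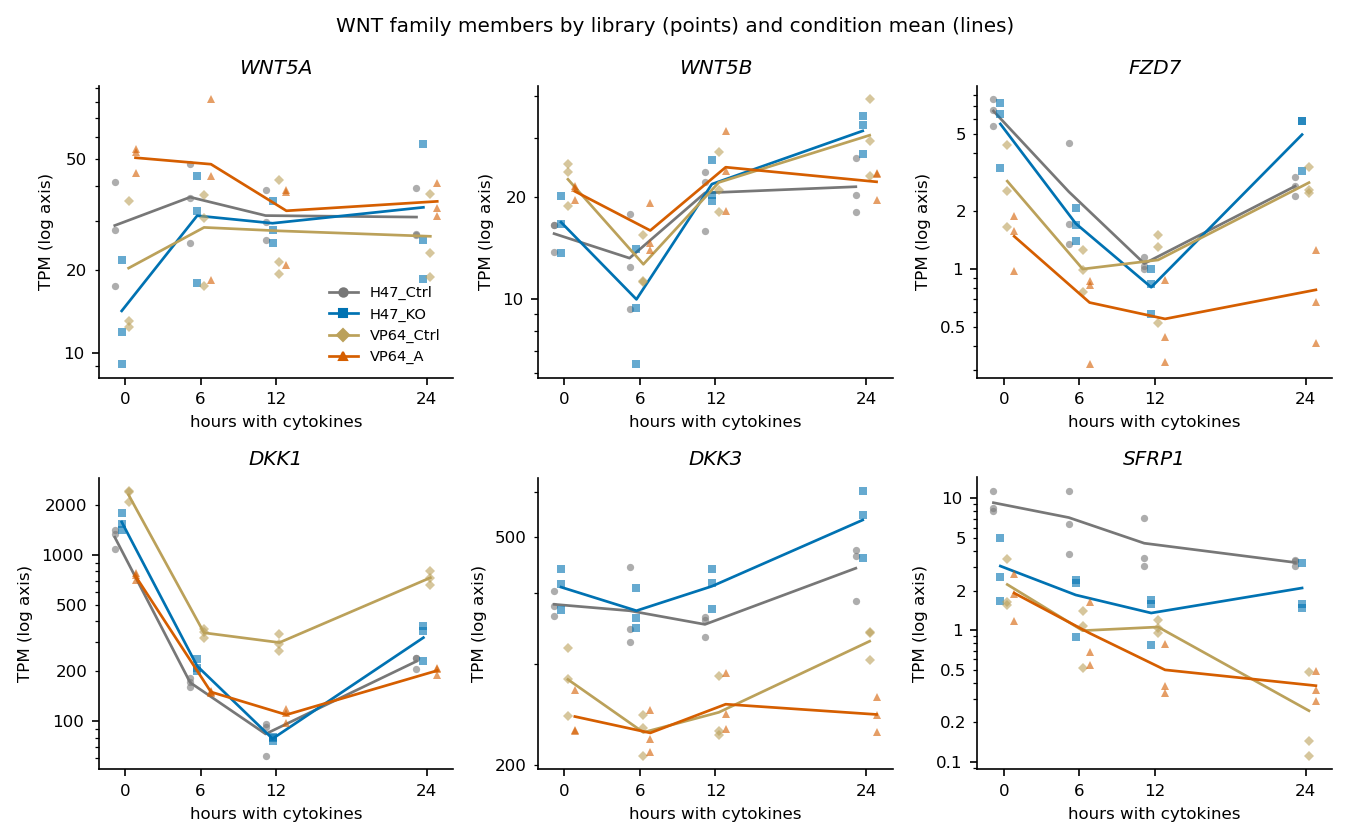
Levels of the 6 tested genes in TPM (vertical log axis) against hours with TGFβ and IL-1β, with 1 point per library and lines through the means of 3 libraries in each of 4 groups of cells. DKK1 fell by 6 h in every group and the VP64_Ctrl libraries stayed above the VP64_A libraries at each time, while SFRP1 was highest in H47_Ctrl.

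The first question was how the cytokines changed these genes in each group of cells. DKK1 fell steeply in all 4 groups, to a low at 12 h, and had partly returned by 24 h. FZD7 followed the same course in both H47 groups, and SFRP1 was called lower at 12 or 24 h, or at both. WNT5B rose at 12 h in all 4 groups and at 24 h in all but VP64_A. WNT5A rose in H47_KO and VP64_Ctrl, whose libraries at 0 h lay below those of the other group of their arm in normalised CPM, though not all of the H47_KO libraries did in TPM. A gene was called at an adjusted p under 0.05 (edgeR quasi-likelihood test, Benjamini-Hochberg over all genes of the arm). Over 6 genes and 3 times, 10 of 18 values were called in H47_Ctrl (2 higher, 8 lower), beside 15.3% of the values of all genes (9.39% higher, 5.87% lower). In H47_KO 11 were called (5 higher, 6 lower), beside 22.4% (12.2% and 10.2%). In VP64_Ctrl 9 were called (5 higher, 4 lower), beside 23.8% (13.9% and 9.91%). In VP64_A 6 were called (1 higher, 5 lower), beside 16.9% (11% and 5.86%). The 6 genes moved both ways, and their median log2 change at 6, 12 and 24 h was -0.27, -0.40 and -0.38 in H47_Ctrl, -0.25, -0.30 and -0.06 in H47_KO, -0.24, 0.04 and 0.52 in VP64_Ctrl, and -0.50, -0.74 and -0.44 in VP64_A. The median of all genes lay between -0.10 and 0.02 in these 12 comparisons.

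DKK1 in H47_Ctrl stood at 1298, 1130 and 1443 normalised CPM at 0 h. It was at 133, 230 and 203 at 6 h, at 103, 67.7 and 115 at 12 h, and at 243, 304 and 258 at 24 h. Every library with cytokines lay below every library at 0 h, and the 12 h libraries lay below all others. The fall was 6.85-fold at 6 h (log2 change -2.78 ± 0.25, adjusted p = 1.56e-10), 13.6-fold at 12 h (-3.77 ± 0.26, adjusted p = 4.13e-13) and 4.82-fold at 24 h (-2.27 ± 0.25, adjusted p = 1.93e-08). In H47_KO, DKK1 stood at 2242, 1784 and 1029 normalised CPM at 0 h and at 100, 90.4 and 96.8 at 12 h, a fall of 17.6-fold (-4.14 ± 0.27, adjusted p = 4.55e-14).

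In the CRISPRa arm the fall of DKK1 was called at each time as well. VP64_Ctrl libraries stood at 2210, 2441 and 1237 normalised CPM at 0 h and at 427, 277 and 431 at 12 h, 5.19-fold lower (log2 change -2.38 ± 0.23, adjusted p = 1.15e-09). At 24 h they were at 764, 848 and 708, still 2.54-fold below 0 h. VP64_A libraries started lower, at 854, 733 and 819 normalised CPM, and reached 163, 121 and 148 at 12 h, 5.58-fold lower (-2.48 ± 0.23, adjusted p = 6.23e-10). The 2 arms were fitted apart, so the depth of the fall was not tested between them.

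FZD7, a receptor for WNT ligands, fell and came back in the H47 cells. In H47_Ctrl it was at 12.3, 15.8 and 18.1 normalised CPM at 0 h, at 8.05, 4.98 and 3.93 at 6 h, at 2.58, 2.94 and 2.90 at 12 h and at 6.47, 7.95 and 7.37 at 24 h. The groups at 0 h and 12 h did not overlap, and the log2 change was -1.39 ± 0.29, -2.43 ± 0.34 and -1.09 ± 0.29 at the 3 times (adjusted p = 0.000513, 1.95e-06 and 0.0119). The call at 24 h was lost without replicate 3 of 0 h (-0.96, adjusted p = 0.0611) or replicate 1 of 24 h (-1.0, adjusted p = 0.0731), and by limma on log2(TPM + 0.1) (adjusted p = 0.0688). In H47_KO it fell by 1.25 ± 0.31 and 2.54 ± 0.32 on the log2 scale at 6 and 12 h (adjusted p = 0.00348 and 1.82e-07), and the value at 24 h, -0.38 ± 0.27, was not called. The 12 h value was -1.84 by limma on log2(TPM + 1). In the CRISPRa arm FZD7 had only 4 to 65 counts a library and no change with time was called, with log2 values from -1.14 to 0.44.

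Among the ligands, WNT5A was not called with time in H47_Ctrl, where the libraries at 0 h were spread widely. It was at 136, 97.2 and 61.6 normalised CPM at 0 h and 129, 155 and 110 at 6 h, a log2 change of 0.41 ± 0.27 (adjusted p = 0.351, 95% interval -0.11 to 0.93) that ran from 0.17 to 0.72 with single libraries left out. At 12 and 24 h it was 0.31 ± 0.27 and 0.32 ± 0.27 (adjusted p = 0.470 and 0.575). In H47_KO it started at 40.3, 47.7 and 54.4 and was at 190, 186 and 79.4 at 6 h, with no overlap, a 3.17-fold rise (log2 change 1.67 ± 0.28, adjusted p = 2.56e-05). In TPM the H47_KO libraries of 0 and 6 h overlapped, at 9.13 to 21.6 and 17.9 to 43.3. The rise was 1.40 ± 0.27 at 12 h and 1.10 ± 0.27 at 24 h (adjusted p = 0.000191 and 0.00401). Without replicate 3 of H47_KO at 24 h, which reached 141 normalised CPM against 102 and 58.3, the last value was 0.78 and was not called (adjusted p = 0.0646). It was 0.88 (adjusted p = 0.0633) without both H47_KO libraries of high TMM factor, and limma on TPM values did not call it (adjusted p = 0.0619 and 0.0711). In VP64_Ctrl WNT5A stood at 39.9, 45 and 73.7 at 0 h and 145, 85.5 and 168 at 6 h, a 2.51-fold rise (1.33 ± 0.32, adjusted p = 0.00182). It was 2.22-fold higher at 12 h (1.15 ± 0.31, adjusted p = 0.00609, and 0.90 with adjusted p = 0.0575 without replicate 2 of 12 h), and at 24 h the value of 0.88 ± 0.31 was not called (adjusted p = 0.0509). On TPM values with limma neither call was made: the 6 h value was 0.57 and 0.59 with the 2 pseudocounts (adjusted p = 0.221 and 0.235) and the 12 h value 0.50 and 0.53 (adjusted p = 0.303 and 0.320). With no filter on low counts the 24 h value, at 0.87, was called (adjusted p = 7.04e-05). It became 1.17 (adjusted p = 0.0198) without replicate 3 of VP64_Ctrl at 0 h and 1.09 (adjusted p = 0.0179) without replicate 3 of 24 h. VP64_A libraries, at 196, 193 and 168 at 0 h and 293, 216 and 89.5 at 6 h, overlapped. The log2 change there was 0.11 ± 0.30 (adjusted p = 0.863), and it turned to -0.28 (adjusted p = 0.631) without replicate 1 of 6 h.

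WNT5B, the close relative of WNT5A, was called higher at 12 or 24 h and not at 6 h. In H47_KO its mean went from 21 ± 2.82 (SD, n = 3) normalised CPM at 0 h to 32.9 ± 3.73 at 12 h and 35.3 ± 3.62 at 24 h, rises of 0.65 ± 0.19 and 0.75 ± 0.18 (SE) on the log2 scale (edgeR, adjusted p = 0.00816 and 0.00398). In VP64_Ctrl the changes were 0.55 ± 0.16 and 0.77 ± 0.16 (adjusted p = 0.0121 and 0.000822), in H47_Ctrl 0.57 ± 0.20 and 0.66 ± 0.19 (adjusted p = 0.0404 and 0.0230), and in VP64_A 0.53 ± 0.16 at 12 h (adjusted p = 0.0202). At 24 h the VP64_A value, 0.40 ± 0.16, was not called (adjusted p = 0.118). These were close to the threshold: at 12 h the call was lost in H47_Ctrl without replicate 1 or 2 of either time (adjusted p up to 0.166), in VP64_A without replicate 1 or 2 of 0 h or replicate 2 or 3 of 12 h (up to 0.118), and in VP64_Ctrl without replicate 3 of 0 h (0.40, adjusted p = 0.0996) or replicate 2 of 12 h (0.51, adjusted p = 0.0516). At 24 h in H47_Ctrl it was lost without replicate 1 or 2 of 0 h or replicate 2 of 24 h (adjusted p up to 0.234). On TPM values with limma only the rise in H47_KO at 24 h was called: the others lay between 0.36 and 0.45 on the log2 scale in the H47 cells (adjusted p = 0.364 to 0.461), at 0.40 and 0.41 in VP64_Ctrl at 24 h (adjusted p = 0.234 and 0.253) and at 0.20 in VP64_A (adjusted p = 0.622 and 0.615), and the 12 h value in VP64_Ctrl was -0.039 and -0.041 (adjusted p = 0.902 and 0.903). With no filter on low counts the 12 h calls in H47_Ctrl and VP64_A were lost too (adjusted p = 0.0583 and 0.0572), the latter also with only the libraries compared (adjusted p = 0.0576).

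SFRP1, which binds WNT ligands, was not called at 6 h in any group and fell at 24 h in 3 of the 4. In H47_Ctrl it was at 20.7, 31.6 and 23.5 normalised CPM at 0 h and 10.7, 11.7 and 8.80 at 24 h, 2.46-fold lower with no overlap (log2 change -1.30 ± 0.30, adjusted p = 0.00267). In VP64_Ctrl it fell from 47, 53 and 38 counts at 0 h to 3, 1 and 10 counts at 24 h (log2 change -2.55 ± 0.48, adjusted p = 0.000202), and in VP64_A from 92, 26 and 34 counts to 7, 3 and 8 (-2.02 ± 0.46, adjusted p = 0.00212). The size of these falls was less firm than the calls: in VP64_Ctrl it was -3.46 without replicate 3 of 24 h, and limma on log2(TPM + 1) gave -1.34 in VP64_Ctrl and -1.05 in VP64_A. At 12 h the log2 change was -0.87 ± 0.29 in H47_Ctrl (adjusted p = 0.0334), -0.85 ± 0.33 in H47_KO (adjusted p = 0.0499) and -1.65 ± 0.43 in VP64_A (adjusted p = 0.00591, and -0.94 by limma on log2(TPM + 1)). The values of -0.61 ± 0.31 in H47_KO at 24 h (adjusted p = 0.191) and -0.34 ± 0.40 in VP64_Ctrl at 12 h (adjusted p = 0.563) were not called. The 12 h call was lost in H47_Ctrl without replicate 2 or 3 of either time (adjusted p up to 0.212), in H47_KO without any 1 library except replicate 1 of 0 h (up to 0.256), and in VP64_A without replicate 1 of 0 h (-1.29, adjusted p = 0.0688). Without the 2 libraries of high TMM factor the 12 h value in H47_KO was -0.61 (adjusted p = 0.216), and DESeq2 did not call it (adjusted p = 0.0530). On TPM values limma called neither 12 h value of the H47 cells (adjusted p = 0.0872 to 0.162), and with a pseudocount of 0.1 it did not call the 24 h value in H47_Ctrl (adjusted p = 0.0721).

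DKK3 changed little, between 335 and 753 normalised CPM in the means of the 16 conditions. Its only call was at 24 h in VP64_Ctrl, where it went from 335 ± 51.2 (SD, n = 3) to 510 ± 71.1 normalised CPM (edgeR, log2 change 0.61 ± 0.17 (SE), adjusted p = 0.0124). That call was lost without replicate 3 of 0 h (0.47, adjusted p = 0.0734), replicate 1 of 24 h (0.52, adjusted p = 0.0853) or replicate 2 of 24 h (0.56, adjusted p = 0.0614), with only the libraries compared (adjusted p = 0.0942), and by limma on TPM values (0.23, adjusted p = 0.259 and 0.269).

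**Figure D2:**
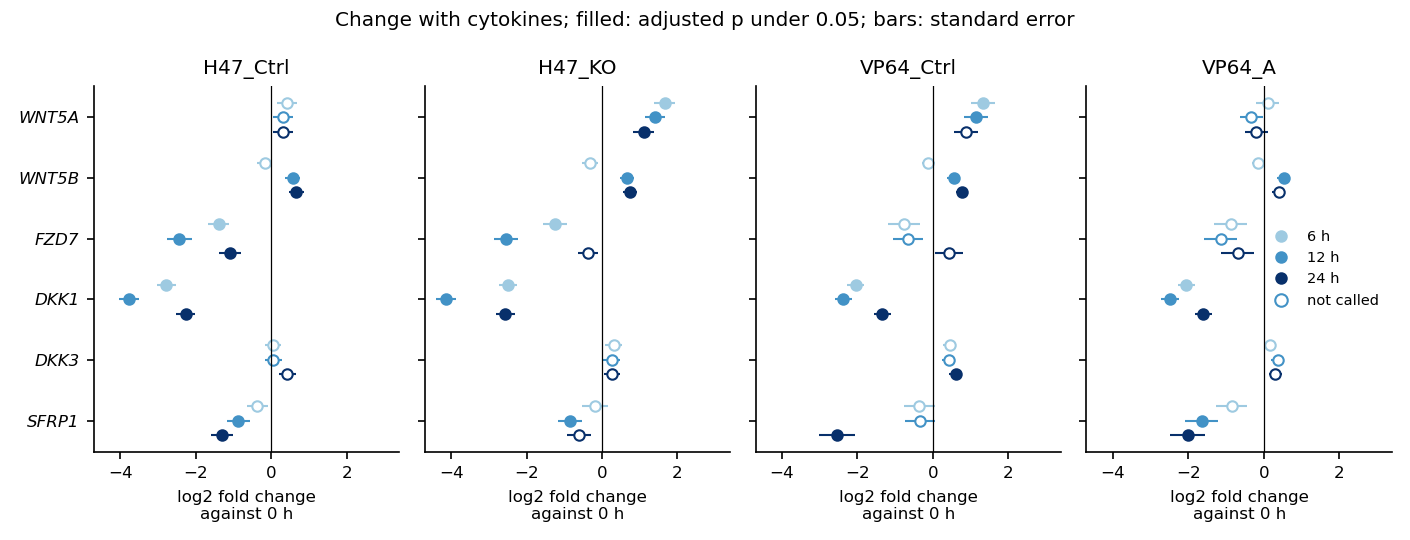
Log2 fold change of the 6 tested genes at 6, 12 and 24 h against 0 h in each group of cells, with bars for the standard error and filled points for an adjusted p under 0.05. All 12 DKK1 values are below 0 and called, and the WNT5A points sit to the right of 0 in H47_KO and VP64_Ctrl.

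The second question was what changed in H47_KO cells. SFRP1 was the gene that differed, lower in H47_KO from the start. In the libraries at 0 h it was at 5.66, 7.93 and 9.87 normalised CPM in H47_KO and 20.7, 31.6 and 23.5 in H47_Ctrl, 3.19-fold lower with no overlap (log2 difference -1.68 ± 0.29, adjusted p = 0.00587). At 6 h it was at 7.89, 3.96 and 8.39 against 23.7, 21.5 and 13 (-1.49 ± 0.32, adjusted p = 0.0295), and at 12 h at 2.74, 5.29 and 5.22 against 20.6, 9.16 and 12.0 (-1.66 ± 0.34, adjusted p = 0.0310). At 24 h the groups were at 4.56, 3.94 and 6.31 and at 10.7, 11.7 and 8.80, also apart, and the difference of -0.99 ± 0.32 was not called (adjusted p = 0.267). In TPM the groups overlapped at 24 h, with H47_KO at 1.467 to 3.212 and H47_Ctrl at 3.055 to 3.387. Over the mean of the 4 times SFRP1 was 2.74-fold lower in H47_KO (-1.46 ± 0.16, adjusted p = 4.26e-07).

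These SFRP1 values are 3 of the 24 member-by-time values in H47_KO against H47_Ctrl, all 3 lower, where 0.228% of the values of all genes were called (0.16% higher, 0.0684% lower). Averaged over the times, 1 of the 6 genes was called, beside 3.07% of all genes (1.98% higher, 1.09% lower). The averaged SFRP1 call held without each of the 24 libraries (log2 difference from -1.52 to -1.36) and without the 2 libraries of high TMM factor (-1.56). The calls at single times were less firm: at 0 h the call was lost without replicate 1 of H47_KO (adjusted p = 0.0574), at 6 h without any 1 of the 6 libraries except replicate 3 of H47_Ctrl (adjusted p up to 0.306), and at 12 h without any 1 except replicate 2 of H47_Ctrl (up to 0.314). On TPM values limma called none of the 3, with adjusted p from 0.236 to 0.343 at 0 h, 0.117 to 0.130 at 6 h and 0.507 to 0.691 at 12 h. DESeq2 gave no adjusted p at 6 h, where its log2 difference was -1.47.

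None of the other members was called in H47_KO against H47_Ctrl. WNT5A at 0 h was at 40.3, 47.7 and 54.4 normalised CPM in H47_KO and at 136, 97.2 and 61.6 in H47_Ctrl, with no overlap, and the log2 difference of -1.06 ± 0.27 missed the threshold (adjusted p = 0.0707). Without replicate 3 of H47_Ctrl at 0 h it was -1.31 (adjusted p = 0.0281), and without the 2 libraries of high TMM factor -1.19 (adjusted p = 0.0392). The call was also made by DESeq2 (adjusted p = 0.0265), with no filter (adjusted p = 4.40e-06) and with only the libraries compared (adjusted p = 0.0105). It was not made with DESeq2 size factors (adjusted p = 0.0698), with the replicate block (adjusted p = 0.0944) or by limma on TPM values (-0.97 and -1.02, adjusted p = 0.693 and 0.727), nor without any 1 of the 5 libraries other than replicate 3 of H47_Ctrl, where the smallest difference was -0.75 (adjusted p = 0.475), without replicate 1 of H47_Ctrl. In TPM the groups overlapped, with H47_KO at 9.13, 11.9 and 21.6 and H47_Ctrl at 41.3, 27.7 and 17.4. At 6, 12 and 24 h the WNT5A libraries overlapped, and over the mean of the 4 times the difference was -0.27 ± 0.13 (adjusted p = 0.306). DKK1 at 6 h was at 267, 327 and 303 normalised CPM in H47_KO and 133, 230 and 203 in H47_Ctrl, with no overlap, and its log2 difference of 0.67 ± 0.24 was not called by edgeR (adjusted p = 0.245) and was by DESeq2 (adjusted p = 0.0496). Over the mean of the times the DKK1 difference was 0.29 ± 0.12 (adjusted p = 0.204, 95% interval 0.06 to 0.52). Without the 2 libraries of high TMM factor DKK1 was called at 0.38 (adjusted p = 0.0321) and so was DKK3 at 0.32 (adjusted p = 0.0374), while the calls among all genes went from 336 of 10962 to 466 of 10907.

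The third question was what changed in VP64_A cells, which held 8.30-fold more GLIS3 RNA over the mean of the times. DKK1 was lower in VP64_A at every time. WNT5A was higher before cytokines, and FZD7 was lower, most at 24 h. SFRP1, which was lower in H47_KO than in H47_Ctrl, was not called here (mean log2 difference -0.02 ± 0.26, adjusted p = 0.970, 95% interval -0.54 to 0.49). Its median was 5.09 TPM in H47_Ctrl, 1.68 in H47_KO, 1.05 in VP64_Ctrl and 0.612 in VP64_A. Both VP64 groups thus had lower medians than H47_KO, and the arms were not compared by a test. DKK1 at 0 h was at 854, 733 and 819 normalised CPM in VP64_A and 2210, 2441 and 1237 in VP64_Ctrl, 2.45-fold lower (log2 difference -1.29 ± 0.22, adjusted p = 0.000157). At 6 h it was at 161, 212 and 206 against 370, 513 and 542 (-1.30 ± 0.23, adjusted p = 0.000235). At 12 h it was at 163, 121 and 148 against 427, 277 and 431 (-1.40 ± 0.23, adjusted p = 8.27e-05). At 24 h it was at 278, 243 and 271 against 764, 848 and 708 (-1.55 ± 0.23, adjusted p = 1.62e-05).

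At none of the 4 times did the DKK1 libraries of VP64_A and VP64_Ctrl overlap, and the mean difference was 2.61-fold (log2 -1.38 ± 0.11, adjusted p = 2.11e-11). At 0 h it was -1.54 (adjusted p = 3.30e-06) without replicate 3 of VP64_Ctrl, the library with the high TMM factor. On the TPM scale the same library read 2082 beside 2404 and 2450, below both on either scale but closer to them in TPM.

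WNT5A at 0 h was at 196, 193 and 168 normalised CPM in VP64_A and 39.9, 45 and 73.7 in VP64_Ctrl, 3.54-fold higher with no overlap (log2 difference 1.83 ± 0.31, adjusted p = 0.000157). With cytokines the libraries of the 2 groups overlapped at 6 and 12 h. At 24 h VP64_A was at 195, 141 and 152 and VP64_Ctrl at 91.2, 138 and 63.9, with no overlap, and the log2 difference of 0.75 ± 0.31 was not called (adjusted p = 0.222, and 0.00260 with no filter). Over the mean of the 4 times WNT5A was 1.84-fold higher (0.88 ± 0.15, adjusted p = 6.95e-05), and this call held without each of the 24 libraries.

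FZD7 at 24 h was at 1.31, 3.78 and 2.05 normalised CPM in VP64_A and at 6.88, 8.43 and 5.62 in VP64_Ctrl, 2.99-fold lower (log2 difference -1.58 ± 0.43, adjusted p = 0.0267). The counts behind it were 5, 11 and 13 against 46, 26 and 44. The call was lost without replicate 1 of VP64_A (-1.32, adjusted p = 0.181), replicate 3 of VP64_A (-1.48, adjusted p = 0.153), replicate 1 of VP64_Ctrl (-1.58, adjusted p = 0.0697) or replicate 2 of VP64_Ctrl (-1.45, adjusted p = 0.0911). Over the mean of the 4 times FZD7 was 1.85-fold lower (-0.89 ± 0.22, adjusted p = 0.00449), which held without each of the 24 libraries.

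In all, 6 of the 24 member-by-time values were called in VP64_A against VP64_Ctrl, 5 lower and 1 higher, beside 5.4% of the values of all genes (2.77% lower, 2.63% higher). Averaged over the times 3 of the 6 genes were called, 2 lower and 1 higher, beside 18.4% of all genes (9.23% lower, 9.15% higher).

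**Figure D3:**
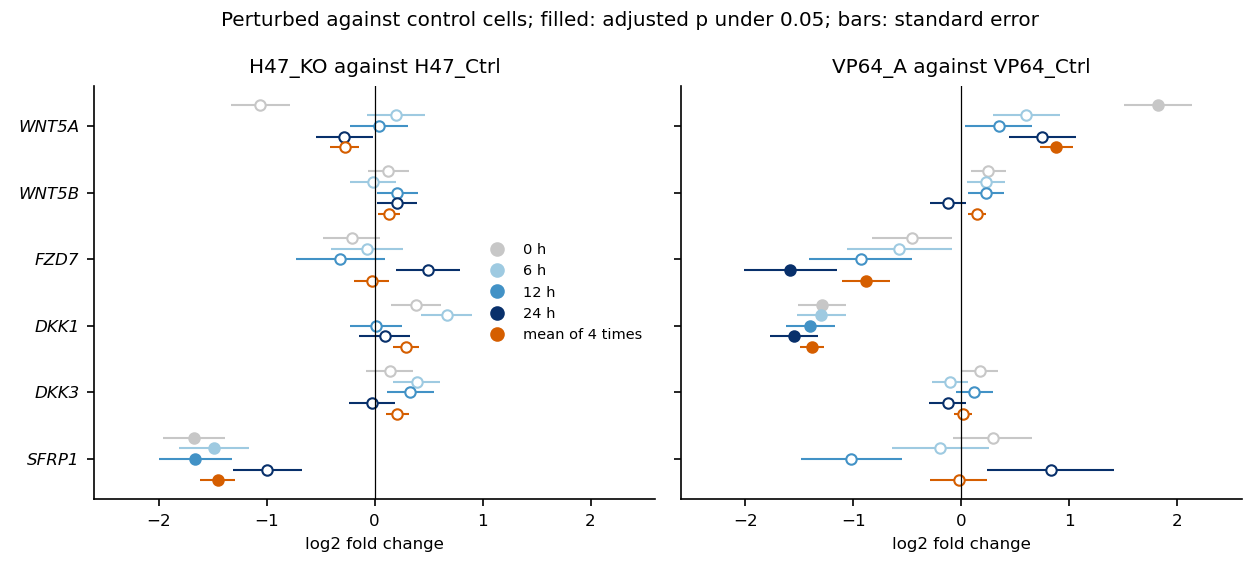
Log2 fold change of the 6 tested genes in H47_KO against H47_Ctrl (left) and VP64_A against VP64_Ctrl (right) at each time and over the mean of the 4 times, with bars for the standard error and filled points for an adjusted p under 0.05. SFRP1 is the gene called on the left and DKK1, FZD7 and WNT5A are those called on the right.

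The last comparison asked whether the cytokine response itself differed between the groups of an arm. For DKK1 the difference of responses lay between -0.37 and 0.28 on the log2 scale at the 6 comparisons, and none was called. The WNT5A estimates were larger: the change was greater in H47_KO than in H47_Ctrl by 1.26 ± 0.38, 1.10 ± 0.38 and 0.78 ± 0.38 at 6, 12 and 24 h (adjusted p = 0.340, 0.711 and 0.875), and less in VP64_A than in VP64_Ctrl by 1.22 ± 0.44, 1.48 ± 0.44 and 1.08 ± 0.44 (adjusted p = 0.351, 0.182 and 0.591). These were not called either, while 0.00304% of the values of all genes were called for H47_KO and 0.188% for VP64_A. At an unadjusted p under 0.05, 3 of 18 member values passed for H47_KO, beside 2194 of 32886 values of all genes, and 4 of 18 for VP64_A, beside 3009 of 32940. With no filter on low counts edgeR called the WNT5A difference at 6 and 12 h for H47_KO (adjusted p = 0.000408 and 0.00917) and at all 3 times for VP64_A (adjusted p = 1.28e-05 to 0.00926), with nearly the same log2 values and smaller standard errors, while DESeq2 called none of the 6 (adjusted p = 0.0969 to 0.952). Dropping the filter raised the calls among all genes too, from 1, 0 and 0 at 6, 12 and 24 h to 63, 31 and 21 for H47_KO, and from 10, 29 and 23 to 106, 162 and 81 for VP64_A.

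The members were then set among the rest of the pathway. A list of 103 WNT pathway genes was used, of which 93 are not among the 10. Of these, 42 were tested among the H47 libraries and 41 among the VP64 libraries. With cytokines, 8 of the 42 rose and 6 fell at some time in H47_Ctrl, where 16.7% of all genes tested rose and 12.7% fell at some time. In H47_KO 12 rose and 7 fell, beside 21.1% and 20.7% of all genes. In VP64_Ctrl 11 of the 41 rose and 12 fell, beside 23.2% and 20.2%, and in VP64_A 5 rose and 6 fell, beside 18.6% and 13%. Receptors moved both ways. PTK7, a co-receptor, was 2.07-fold higher at 24 h in H47_Ctrl (adjusted p = 0.00590). Of the 8 receptors tested beside the members, PTK7 among them, 1 was called higher at some time in H47_Ctrl, 2 in H47_KO, 2 in VP64_Ctrl and 0 in VP64_A, and 3 were called lower in each group. FZD2 and FZD4 were called lower in all 4 groups at some time: FZD4 went from 15.5 ± 2.89 to 2.47 ± 1.12 (SD, n = 3) normalised CPM by 12 h in H47_Ctrl (edgeR, adjusted p = 8.10e-07), and FZD2 from 9.02 ± 0.416 to 1.21 ± 0.527 by 6 h in VP64_Ctrl (adjusted p = 8.42e-08). LRP5, a co-receptor, fell by 2.07 ± 0.36 and 1.22 ± 0.35 (SE) on the log2 scale in VP64_Ctrl at 6 h and VP64_A at 12 h (adjusted p = 5.72e-05 and 0.0117).

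Among the nuclear factors, the co-repressor TLE4 fell in H47_Ctrl, from 28.9 ± 2.54 to 7.90 ± 0.848 (SD, n = 3) normalised CPM at 6 h (edgeR, adjusted p = 4.00e-08). The mean of TLE3, another co-repressor, went from 0.772 to 6.08 normalised CPM at 6 h in H47_Ctrl and from 0.901 to 4.06 in H47_KO. It went from 0.619 to 2.33 in VP64_Ctrl and from 0.502 to 2.19 in VP64_A. TLE3 can have passed the filter on low counts only through libraries with cytokines, so no test is given for it. The counts above of list genes that rose include TLE3 in each group. MYC, a target gene of the pathway and of much else, rose 2.6-fold at 6 h in H47_Ctrl and 2.47-fold in H47_KO (adjusted p = 3.32e-07 and 1.53e-06). The kinase GSK3B, part of the complex that destroys β-catenin, rose 2.55-fold in H47_KO and 2.87-fold in VP64_A at 6 h (adjusted p = 0.00154 and 0.000208). The ligand WNT16 had 0 or 1 count a library at 0 h in H47_Ctrl and 13 to 25 counts at 24 h, and in H47_KO 14 to 58 counts at 24 h from 0 in all 3 libraries. WNT16 passed the filter on low counts only through the libraries at 24 h, so no test is given for it. The 8 genes counted above as higher in H47_Ctrl and the 12 in H47_KO include it, so each count is 1 lower without it.

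Between groups of cells, IGFBP4, listed as an antagonist, was the 1 other gene called in H47_KO against H47_Ctrl, at 76.5 ± 15.7 against 45.1 ± 4.26 (SD, n = 3) normalised CPM at 24 h (edgeR, log2 difference 0.74 ± 0.15 (SE), adjusted p = 0.0267) and higher by 0.62 ± 0.08 over the mean of the times (adjusted p = 2.19e-06). Of all genes, 0.511% were called higher at some time in that comparison and 1.98% over the mean of the times. In VP64_A against VP64_Ctrl 4 of the 41 were higher over the mean of the times and 7 were lower, beside 9.15% and 9.23% of all genes. TNFRSF19, a β-catenin target, was 2.63-fold higher (adjusted p = 2.52e-06), and WLS, which carries WNT proteins to the cell surface, was 1.57-fold higher (adjusted p = 3.39e-07). FZD4 was 1.64-fold lower (adjusted p = 8.90e-06), and TBX3 (1.64-fold, adjusted p = 8.62e-08) and TLE4 (1.70-fold, adjusted p = 9.74e-06) were lower too. LEF1, a partner of β-catenin, is among the 7 counted as lower. Its highest count in a library was 13 in VP64_A and 27 in VP64_Ctrl. LEF1 may have passed the filter on low counts only through VP64_Ctrl libraries, where it was higher, so no test is given for it.

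The antagonists of the list, 18 genes, were summed in TPM. The sum is of transcripts and includes DKK3, whose action is less clear, so it does not measure how far WNT signals are blocked. In H47_Ctrl the sum was 1745 ± 164 (SD, n = 3) at 0 h, 612 ± 87.1 at 6 h, 493 ± 30.1 at 12 h and 721 ± 66.2 at 24 h. DKK1 made up 73.8% of it at 0 h, and DKK3 was the most abundant antagonist at 6, 12 and 24 h, with 71.5% at 12 h. In VP64_Ctrl the sum fell from 2723 ± 117 at 0 h to 608 ± 30.7 at 12 h and DKK1 stayed the most abundant throughout. In VP64_A it fell from 1059 ± 13 to 421 ± 44.9, with DKK3 the most abundant from 6 h on. Beside this fall of the sum, the mean of DKK3 stayed between 228 and 536 TPM in all 16 conditions.

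**Figure D4:**
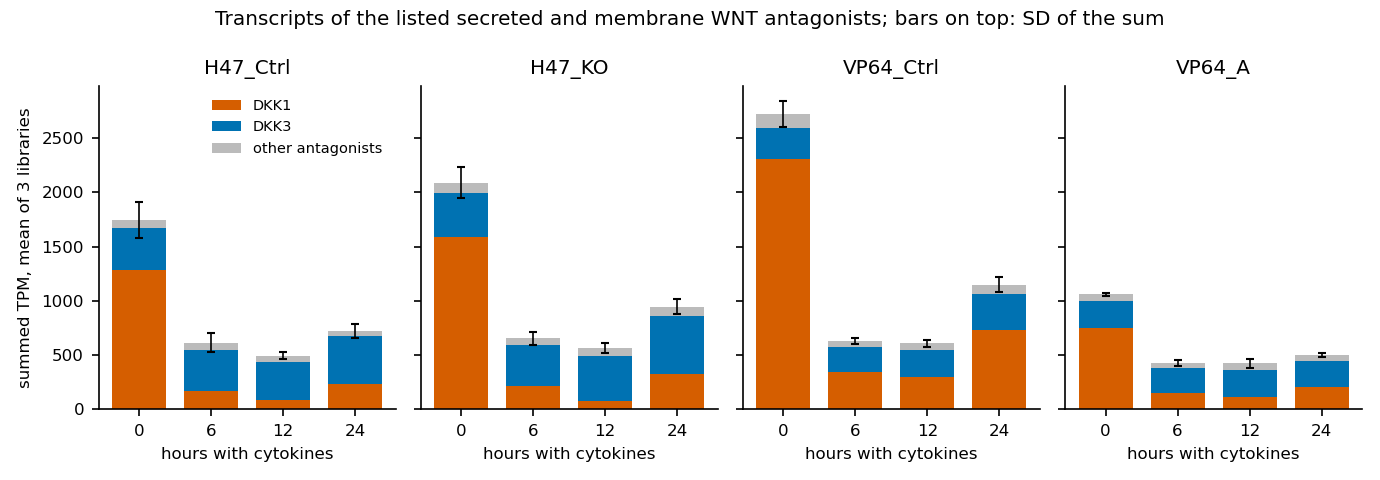
Summed TPM of the 18 listed WNT antagonists by hours with cytokines in each group of cells, split into DKK1, DKK3 and the rest (stacked bars, means of 3 libraries), with the SD of the sum as error bars. The sum is highest at 0 h in VP64_Ctrl, at 2723 TPM, and DKK1 is most of it at 0 h in every group.

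Genes with profiles most like those of the members were found over the 16 condition means of log2 CPM, each centred within its arm, among 10690 genes. For DKK1, which spanned 4.11 log2 units, the nearest were LHX9, FAT4 and GAS6, with root mean square differences of 0.36, 0.46 and 0.48 log2 units. For SFRP1 they were ZBED5-AS1, LRIG2 and MMP16 at 0.57 each, with a span of 2.94 units. For FZD7 they were LOC100288911, ARHGAP18 and TCEAL1, at 0.29 to 0.33. For WNT5A, which spanned 1.86 units, they were COL4A1, a chain of basement membrane collagen, at 0.18, and TMOD3 and IPO5, at 0.26 and 0.27.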

How the data were processed

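Before deposit the authors passed the reads through Trim Galore, SortMeRNA (to take out ribosomal RNA), STAR on GRCh38 and Salmon, whose versions are not given in the sources used here. They deposited estimated counts, which are not normalized between libraries, and TPM, which the authors scaled for transcript length. Salmon shares reads between similar transcripts, and whether strand was used is not stated. Of the estimated counts, 6.38% were not whole, and all were rounded.

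For every arm, 1 model with a mean for each of 8 conditions (24 libraries) was fitted in edgeR 4.0.16 under R 4.3.3, with TMM, filterByExpr (minimum count 10, minimum total 15) and the two-sided quasi-likelihood F test. This left 10962 genes for the H47 cells and 10980 for the VP64 cells. SE is the log2 change over the square root of F. DESeq2 1.42.0, which the study used, and limma 3.58.1 on log2 TPM with a pseudocount of 1 or 0.1 were alternatives, with DESeq2 size factors, no filter, only the libraries compared, a replicate block and each library left out. Leaving out libraries with a TMM factor above 1.5 was added after the data were seen. The fitting was tested on simulated data.

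The members, the pathway list and the tests were chosen with earlier results of these data known. The motifs were chosen after the windows had been read. Named were the 10 members, GLIS3 and IL11 as checks, and of the other list genes up to 4 per direction and comparison with the largest change among those called. A further check gene and a further marker are not reported here. Promoter windows were used for 6 of the 10 members, and the windows of WNT2, WNT5B, RSPO3 and ROR2 are not printed. Of 48 pairs of libraries within conditions, 0 were identical. All 48 columns were matched to a sample.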

Additional observations from a re-analysis of the deposited data

How the results depend on the processing

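Most counts of called values stayed within 1.5 times the reported ones. On log2(TPM + 0.1) limma called 5 values in H47_Ctrl with cytokines. Among all genes it called 776, 1415 and 640 of 10962 there at 6, 12 and 24 h, against 1744, 2150 and 1125 by edgeR. In H47_KO against H47_Ctrl limma called 0 member values on both TPM scales. Of all genes it called 12, 6, 2 and 13 there at 0, 6, 12 and 24 h on log2(TPM + 0.1), against 33, 35, 9 and 23 by edgeR. In VP64_Ctrl limma on TPM values did not call WNT5A at 6 and 12 h, WNT5B at 12 and 24 h or DKK3 at 24 h. Among all genes there, limma on log2(TPM + 0.1) called 5935, 4305 and 1593 of 10980 at 6, 12 and 24 h. On log2(TPM + 1) it called 6177, 4711 and 2006, against 3165, 2938 and 1752 by edgeR. Without the libraries of high TMM factor, 3 members were called in H47_KO averaged over times, and 466 of 10907 genes in all against 336 of 10962. With no filter the cytokine effect differed at 2 values in the CRISPRko arm and at 3 in the CRISPRa arm, all WNT5A, while calls among all genes rose to between 21 and 162 a comparison. The cause was not tested. Leaving out each library in turn gave 7 to 10 calls in H47_Ctrl, 10 to 11 in H47_KO, 8 to 11 in VP64_Ctrl, 4 to 7 in VP64_A, 2 to 4 in H47_KO against H47_Ctrl and 5 to 6 in VP64_A against VP64_Ctrl. Averaged over times it gave 1 to 1 and 3 to 4, and for the difference of responses 0 to 0 in both arms. SFRP1 in VP64_A against VP64_Ctrl, near 0, changed sign with single libraries left out (-0.13 to 0.20) and was 0.0073 without the library of high TMM factor. Of the 67 member values followed under the alternatives, 49 were called in the reported fits. The 12 h change of WNT5B in VP64_Ctrl reversed with limma, to -0.039 and -0.041 on the 2 TPM scales, and WNT5A at 6 h in VP64_A reversed to -0.31 and -0.32 with limma and to -0.28 without replicate 1 of 6 h.

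Not every pair of same-numbered libraries deviated together by a correlation above 0.1: the values ran from -0.05 to 0.31 in the CRISPRko arm, where 7 of 12 correlated best with their own number, and from -0.07 to 0.45 in the CRISPRa arm, where 5 of 12 did. These values cannot tell whether the same number marks a shared culture. The reported fits took the number as a name only. The fit with the replicate block gave 10 calls in each H47 group with cytokines, 3 in H47_KO against H47_Ctrl, 9 in VP64_Ctrl, 6 in VP64_A and 6 in VP64_A against VP64_Ctrl. Of all genes with cytokines it called 1732, 2134 and 1101 of 10962 in H47_Ctrl at 6, 12 and 24 h, and 2577, 2958 and 1704 in H47_KO. It called 3208, 2995 and 1896 of 10980 in VP64_Ctrl, and 2014, 2200 and 1554 in VP64_A. Between groups at 0, 6, 12 and 24 h it called 36, 34, 11 and 24 genes for H47_KO, and 1162, 433, 495 and 477 for VP64_A. Averaged over times the block gave 1 and 3 calls, and 0 for the difference of responses in both arms. The 1 call that was lost with the block was SFRP1 at 12 h in H47_KO (-0.85, adjusted p = 0.0586).

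Depth limits FZD7, SFRP1, RSPO3 and AXIN2, whose counts are the lowest of the members detected. The "only the libraries compared" fit equals the reported one for the averaged comparisons and gave no separate value there.

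Across all genes the counts moved too: in H47_KO against H47_Ctrl at 0 h, 33 genes were called by edgeR, 112 by DESeq2, 137 with no filter and 11 and 12 by limma on log2(TPM + 1) and log2(TPM + 0.1), and in VP64_A against VP64_Ctrl at 0 h, 1033 were called and 491 without the library of high TMM factor.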
